A study of Mus musculus with 12 samples.

Results

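The alanine tRNAs with the anticodon AGC read some of the alanine codons, which all begin with GC. Of the 404 tRNA entries in the deposited tables, 13 carry a name that begins with tRNA-Ala-AGC, and all rows of those entries were taken. Entries with identical values in every library were counted once, which left 9 distinct members among 213 distinct tRNAs. The 9 members hold 658 of 14170 rows. T, which stands for uridine or pseudouridine in the RNA, was the base in 133 of them. Of these T bases, 82 had a coverage of at least 20 reads in all 12 libraries and were tested, among 2189 tested T bases in all tRNAs.

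The study profiled pseudouridine in small RNA of hematopoietic stem and progenitor cells, the cells of the marrow that form blood, from young and old mice. All mice were wildtype, and the labels give no age beyond young or old. RNA was demethylated with the AlkB enzyme and a mutant of it, which remove methyl groups that halt reverse transcriptase. It was then incubated in BEU buffer with CMC, a carbodiimide that leaves a bulky adduct on pseudouridine after an alkaline wash, or in BEU buffer without CMC. There were 3 libraries of each treatment at each age: young with BEU buffer, young with CMC, old with BEU buffer and old with CMC. The labels do not say whether the replicates came from separate animals, so the spread behind each p-value is that of libraries and may be technical alone. The tables hold tRNA alone, so the cell type could not be checked against marker genes.

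Pseudouridine is an isomer of uridine made by pseudouridine synthases after transcription. In tRNA each synthase acts at set positions: TRUB1 and PUS10 in the T loop at positions 54 and 55, PUS3 at positions 38 and 39 of the anticodon stem, PUS1 at positions 27 and 28, and PUS7 at positions 13 and 35. In tRNA-Ala-AGC the A at position 34 is deaminated to inosine by ADAT2 with ADAT3, and the A at position 37 beside it becomes a methylated inosine through ADAT1 and TRMT5.

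The members fall into 2 sequence forms. Members 1-1, 2-1, 3-1 and 8-1 carry T at position 54, and members 4-1, 5-1, 6-1, 7-1 and 10-1 carry A there. The sequences below are those of the 6 best-covered full-length members, since they show where the forms part. The letters are the bases of the deposited rows from 5′ to 3′. Capitals mark the anticodon, position 38, position 54 and position 55.

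tRNA-Ala-AGC-2-1: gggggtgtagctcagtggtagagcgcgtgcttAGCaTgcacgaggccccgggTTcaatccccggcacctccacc

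tRNA-Ala-AGC-3-1: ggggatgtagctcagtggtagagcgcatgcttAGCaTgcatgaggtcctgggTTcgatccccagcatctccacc

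tRNA-Ala-AGC-4-1: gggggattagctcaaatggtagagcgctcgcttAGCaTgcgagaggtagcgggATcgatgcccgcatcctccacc

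tRNA-Ala-AGC-5-1: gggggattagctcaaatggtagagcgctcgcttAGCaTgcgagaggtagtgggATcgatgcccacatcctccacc

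tRNA-Ala-AGC-6-1: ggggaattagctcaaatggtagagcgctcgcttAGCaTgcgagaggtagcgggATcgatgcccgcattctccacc

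tRNA-Ala-AGC-7-1: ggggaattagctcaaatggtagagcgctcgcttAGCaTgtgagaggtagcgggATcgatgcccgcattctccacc

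Wherever their rows cover these positions, all members have the same anticodon and T at 38 and 55. Positions follow the standard tRNA numbering, with the D loop gap of the shorter form placed after position 16. A change from one member to another is written as the base of the first, the position and the base of the second. From 6-1 to 7-1 the one change is C40T. From 4-1 to 6-1 the changes are G5A and C68T, and from 4-1 to 5-1 they are C50T and G64A, one on each strand of the T stem. Member 10-1 is identical to 5-1 over all 71 positions they share and lacks the rows of positions 40 to 43. Member 8-1 is identical to 3-1 over its 56 positions. It lacks rows 36 and 37, which hold positions 37 and 38 in this form, and the rows after 58. With so few differences, a short read can fall on several members, and the sources used here do not say how reads were divided among them.

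The motif GTTCNANNC, read 5′ to 3′ on the RNA strand over positions 53 to 61, is the sequence around position 55 that TRUB1 is known for. It was found in 171 of the 189 tRNAs whose rows cover that window, or 90.5%. Of the 8 Ala-AGC members covered there, 3 held it and the other 5 were those with A at 54. A at 54 followed by T at 55 was found in 8 tRNAs in all, the 5 Ala-AGC members and 3 initiator Met tRNAs.

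The unit throughout is the stop rate, the percent of reads over a base whose cDNA ends there. The difference between CMC and BEU buffer, in percentage points, is called the rise and was taken between libraries of the same age and number. A site was called when edgeR's quasi-likelihood test gave a Benjamini-Hochberg adjusted p under 0.05, the mean rise was at least 10 points and the rate rose in all 3 replicates. In young cells 13 of 82 tested T bases of Ala-AGC were called, or 15.9%, and 18.8% of all tested T bases were. In old cells the count was 14 of 82, or 17.1%, beside 20.3% of all. The same 13 sites were called at both ages, where the share over all tRNAs was 18.0%, so the members as a group lay near the background. Of the 82 tested T bases 20 had exactly 1 stop read in all 12 libraries, where no rise can be seen. Among the other 62, counted apart after the values were seen, 21% were called in young and 22.6% in old cells, beside 22.4% and 24.2% of the 1833 such T bases of all tRNAs. At positions 62 to 75 all 112 bases of the 8 members with bases there had 1 stop in all 12 libraries. All 13 fell on position 38 (5 of 5 tested members), position 55 (7 of 7) and position 40 (the 1 member with T there that was tested). The other 69 tested T bases had mean rises over the 6 pairs between -6.72 and 7.30 points, with a median of 0.71.

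**Figure D1:**
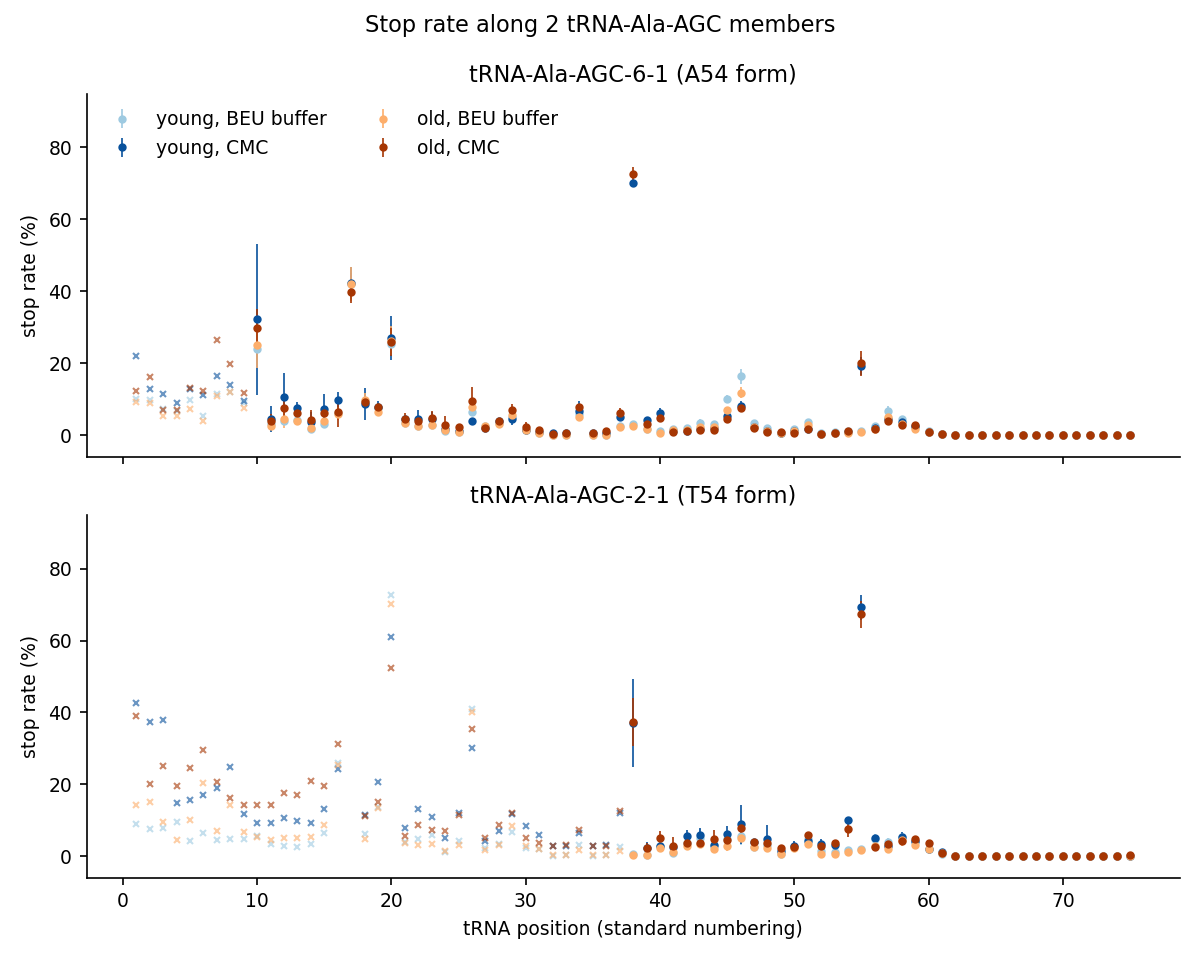
Stop rate in percent (vertical axis) against tRNA position (horizontal axis) for member 6-1, which has A at 54, and member 2-1, which has T at 54; dots with bars are the mean and SD of 3 libraries per group at tested bases, and crosses are means at bases below the coverage minimum. Both members have high stops with CMC at positions 38 and 55 with little stop in BEU buffer, while the D arm of each has stops in BEU buffer too. The D arm bases of 2-1 are below the coverage minimum, so their stops with and without CMC are not compared.

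Position 38 lies where the anticodon stem meets the loop and is a PUS3 site. By the mean over the 6 pairs, 6-1 held the largest rise of the tested Ala-AGC sites here, and in young cells position 55 of 2-1 was slightly higher, at 67.1 against 66.9 points. In 6-1 the stop rate in BEU buffer was 2.51, 3.60 and 3.43% in young cells and 2.50, 2.27 and 3.10% in old cells. With CMC it was 69.8, 69.5 and 71.0% in young cells and 71.2, 74.8 and 71.5% in old cells. No CMC library came near any BEU library, and the CMC libraries lay close together. The rise was 66.9 ± 0.888 points in young cells and 69.9 ± 2.27 points in old cells (SD, n = 3 each; edgeR adjusted p = 3.03e-08 and 1.6e-08). The shallowest CMC library had 442 reads over the base, which gives a 95% Wilson interval of 66.6 to 75.1% for its rate, for counting error only.

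In 4-1, which has the same anticodon arm, the rates with CMC were 63.1, 62.9 and 62.1% in young and 65.6, 66.1 and 63.8% in old cells, against 1.52 to 2.71% over the 6 BEU libraries. Its rise was 60.4 ± 0.913 points in young and 63.4 ± 1.43 points in old cells. Member 6-1 exceeded 4-1 in all 6 library pairs, by 6.52 ± 1.28 points, although the anticodon arms of both are the same. The 2 members ranked first and second among the 20 tRNAs tested at position 38.

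The remaining members had lower and more scattered rises at position 38. In 7-1 the rates with CMC were 53.3, 50.0 and 51.6% in young cells and 49.1, 54.1 and 38.6% in old cells, over as few as 31 reads, and the rise was 50.0 ± 1.72 and 45.8 ± 7.55 points. The 38.6% library, old CMC 3, stood below the others. In 2-1 the rates were 29.8, 30.1 and 51.2% in young and 44.9, 34.8 and 32.4% in old cells, and the rises of 36.3 ± 12.4 and 36.9 ± 6.56 points overlapped. The high young value came from young CMC 3, the library with the lowest coverage there, 43 reads, with a Wilson interval of 36.8 to 65.4%. Member 5-1 had the lowest tested rise, 28.5 ± 5.57 points in young and 26.8 ± 2.36 points in old cells, although its 38 bases from position 38 to the 3′ end differ from those of 4-1 at 2 positions alone. The rise of 4-1 exceeded that of 5-1 in 6 of 6 pairs, by 34.3 ± 5.09 points, which is larger than the spread between pairs. Whether reads were divided unevenly between these near-identical members was not tested.

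**Figure D2:**
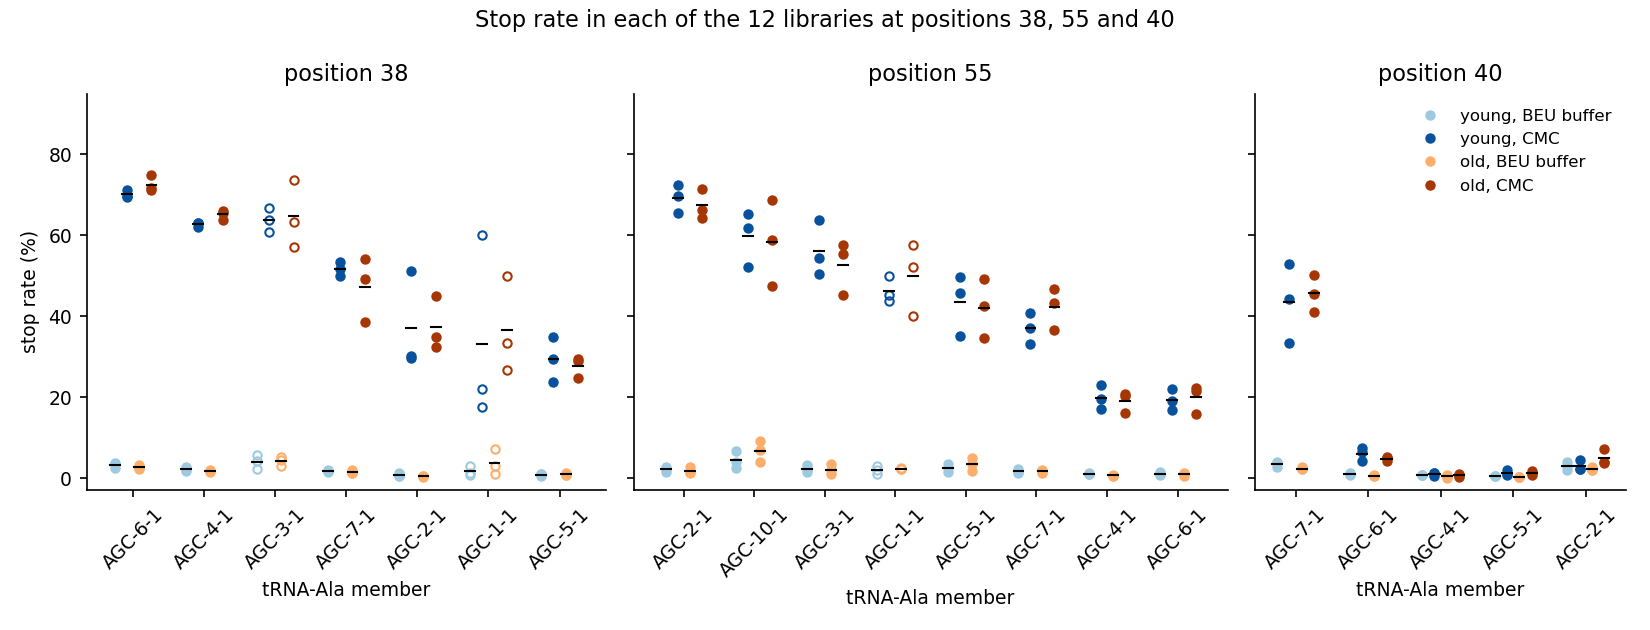
Stop rate in percent (vertical axis) in each of the 12 libraries at positions 38, 55 and 40 for each tRNA-Ala-AGC member (horizontal axis), with a bar at the mean of each group of 3; open circles are members below the coverage minimum. At positions 38 and 55 every CMC library of a tested member lies above all its BEU libraries, and at position 40 member 7-1, the only one of these with T there, stands far above the rest.

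Position 40 separates 7-1 from 6-1. Its T is the single base by which the 2 members differ, in the 3′ strand of the anticodon stem. The stop rate of 7-1 at position 40 was 3.92, 3.61 and 2.69% in young and 2.21, 2.71 and 2.11% in old cells in BEU buffer. With CMC it was 33.3, 44.2 and 52.9% in young and 45.5, 41.1 and 50.3% in old cells. The groups with and without CMC did not overlap. The rise was 40.04 ± 10.4 points in young and 43.3 ± 4.88 points in old cells (edgeR adjusted p = 7.12e-07 and 2.68e-07). At the C of the same position, the rise was 4.97 ± 1.82 and 4.203 ± 0.601 points in 6-1, and under 1 point in 4-1 and 5-1 at both ages. The rise at C40 of 6-1 had adjusted p-values of 0.000683 and 0.000166 in edgeR without reaching the 10 points that a call needs. Whether reads of 7-1 were counted under 6-1 there was not tested. Reverse transcriptase meets position 40 before position 38, so the rate of 7-1 at 38 rests on the reads that passed 40. T at 40 was rare: of 6 tested tRNAs all were called at both ages, 4 of them Ala-CGC or Ala-TGC members, and 7-1 ranked 4 of 6 by mean rise.

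Position 55 in the T loop is the most widely shared pseudouridine of tRNA. Rises there ran from 18.5 to 66.3 points over the tested members (means over 6 pairs). Member 2-1, with T at 54, had rates with CMC of 69.7, 65.4 and 72.5% in young and 66.3, 71.5 and 64.3% in old cells, against 1.25 to 2.81% over the 6 BEU libraries. Its rise of 67.1 ± 4.19 points in young and 65.5 ± 4.44 points in old cells ranked 7 of 161 tRNAs tested at position 55. Member 3-1, also with T at 54, had rates with CMC of 54.3, 50.4 and 63.8% in young and 55.3, 57.6 and 45.2% in old cells, and rises of 53.8 ± 7.16 and 50.6 ± 6.45 points. Member 2-1 was above 3-1 in 6 of 6 pairs.

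The 5 members with A at 54 were all called at position 55. In 6-1 the rates with CMC were 21.9, 16.8 and 18.9% in young and 21.6, 22.2 and 15.9% in old cells, against 0.615 to 1.56% over the 6 BEU libraries. The rise was 18.1 ± 2.92 and 19.0 ± 3.66 points (edgeR adjusted p = 9.97e-07 and 5.96e-07). In 4-1 the rates with CMC were 22.9, 17.01 and 19.6% in young and 20.3, 20.8 and 16.2% in old cells, with rises of 18.8 ± 3.14 and 18.4 ± 2.65 points. The 2 best-covered members of this form were not told apart by their rises, with a difference of 0.08 ± 0.953 points over 6 pairs, and ranked 118 and 119 of 161. In 1 BEU library, old BEU 1, 4-1 was near the highest coverage in the tables, 8015 reads. A coverage of 7500 reads or more is called the ceiling below.

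The other 3 members with A at 54 had higher rises at position 55. In 7-1 the rates with CMC were 40.7, 33.1 and 37.1% in young and 43.3, 46.6 and 36.5% in old cells, with rises of 35.3 ± 4.26 and 40.5 ± 5.398 points. Member 7-1 exceeded 6-1 in 6 of 6 pairs, by 19.4 ± 2.80 points, though all 21 bases from position 55 to the 3′ end are the same in both. In 5-1 the rises were 41.0 ± 7.27 and 38.6 ± 8.85 points. In 10-1 they were 55.4 ± 6.24 and 51.7 ± 13.1 points, above 5-1 in 6 of 6 pairs by 13.7 ± 2.99 points, although the rows they share are identical in sequence. By sequence, a read that ends at position 55 cannot be placed on 7-1 rather than 6-1, or on 10-1 rather than 5-1. The part that read assignment plays in these differences was not tested. The old rates of 10-1 spread from 47.5 to 68.7%, over as few as 61 reads.

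The 3 initiator Met tRNAs with the same bases at 54 and 55 had mean rises at 55 of 4.48 to 7.74 points in young and 4.95 to 6.77 points in old cells, and none was called. Their coverage reached the ceiling in 5 to 8 libraries. The libraries also disagreed, with young rises of 9.88, -7.77 and 11.3 points in iMet-CAT-2-1. In iMet-CAT-3-1 the rates in BEU buffer were already 9.06 to 20.0%. The missing calls are therefore not a clean contrast with the Ala-AGC members. Of 151 tested tRNAs with the motif GTTCNANNC, 122 were called at position 55 in young cells and 130 in old cells. Of 10 tested without it, 5 were called at both ages, and those were the 5 Ala-AGC members. The median rise over the 6 pairs was 37.9 points in the 5 members with A at 54 and 36.3 points in the 153 tested tRNAs with T at 54. These are counts and medians without a test.

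**Figure D3:**
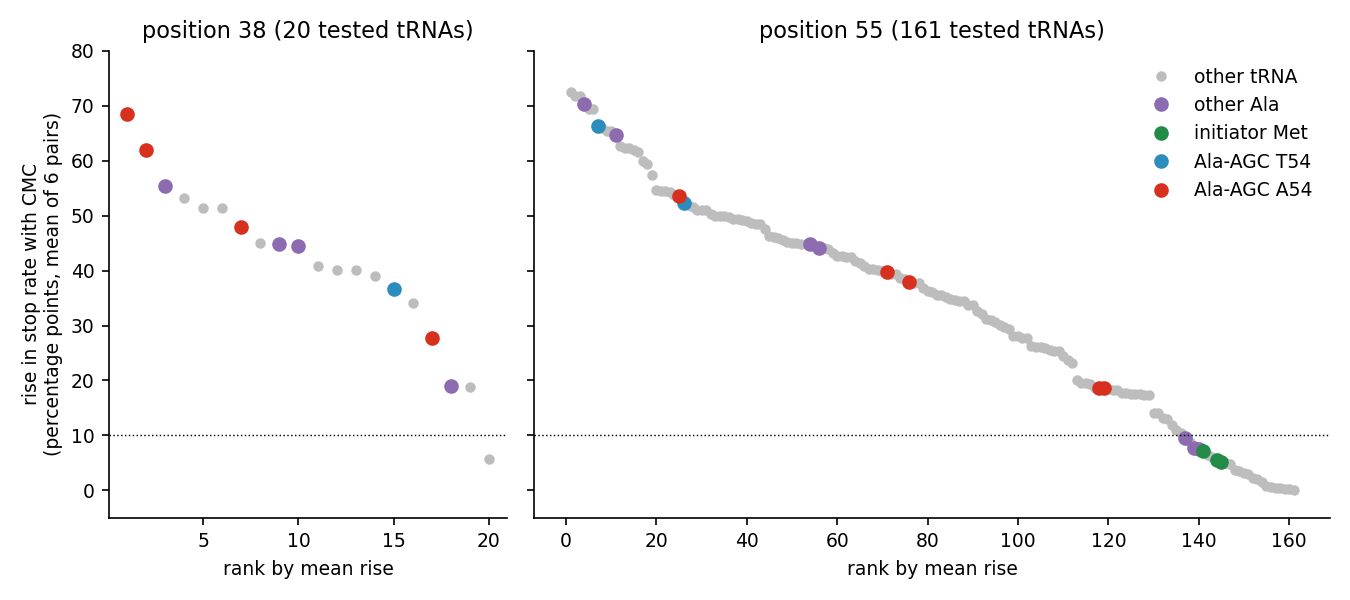
Mean rise in stop rate with CMC over 6 library pairs, in percentage points (vertical axis), of each tested tRNA with T at position 38 (left) or 55 (right), ordered by rank (horizontal axis); colours mark Ala-AGC members by their base at 54, other alanine tRNAs and initiator Met, and the dotted line is the 10 points needed for a call. Members 6-1 and 4-1 lead at position 38 and lie at ranks 119 and 118 at position 55.

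Position 54 carries T in the T54 form alone, and in tRNA it is a site of PUS10 and of a methyltransferase that makes ribothymidine. In 2-1 the rates were 1.55, 1.75 and 1.51% in young and 1.85, 0.781 and 1.26% in old cells in BEU buffer, and 10.4, 9.09 and 10.6% in young and 5.37, 9.57 and 7.49% in old cells with CMC. The CMC libraries were all higher, but the rise of 8.43 ± 0.945 and 6.18 ± 2.64 points stayed under the 10 points a call needs (edgeR adjusted p = 3.74e-05 and 9.28e-05). Member 3-1 had rises of 7.70 ± 5.61 and 4.38 ± 3.53 points. At the A of this position the members with A at 54 had rises from -0.27 to 2.89 points.

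Positions 27 and 28 are PUS1 sites. Position 27 is C in every member, and T at 28 occurs in the 5 members with A at 54. In 4-1 the rates at 28 were 3.03, 2.58 and 2.63% in young and 2.31, 3.14 and 3.08% in old cells in BEU buffer, and 4.06, 2.96 and 4.86% in young and 4.44, 3.15 and 1.74% in old cells with CMC. The treatments overlapped, and the rise was 1.22 points in young and 0.271 points in old cells. None of the 5 members was called, with rises of -1.17 to 1.22 points in young and 0.271 to 2.17 points in old cells. Among the other tRNAs with a tested T at 28, 42 of 73 were called at both ages. T at 32 in the anticodon loop was likewise called in 0 of 5 tested members, with 1 or 2 stop reads per library in each and rises of 0.252 to 1.39 points at both ages, and in 6 of 24 other tRNAs at both ages. Position 39, the other PUS3 site, is G in every member, position 13 is C and position 35 is the G of the anticodon. No A, C or G base was called among 323 tested at either age by edgeR (35 at an unadjusted p under 0.05 in young and 59 in old cells) or by limma, beside 0.368% of such bases in young and 0.61% in old cells in all tRNAs. The largest mean rise among them was at G39 of 7-1, next to its T38, with 8.47 ± 5.25 points in young and 8.55 ± 2.50 points in old cells.

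The other alanine tRNAs served as the nearest comparison. The known pseudouridine positions 13, 27, 28, 38, 39, 54 and 55 were examined, and where both had a tested T, which was at 38, 54 and 55, the best-covered Ala-AGC member was set against the best-covered Ala-CGC and Ala-TGC member, below the coverage ceiling where possible, by an exact 2-sided sign-flip permutation test over 6 library pairs matched by age and number, which the labels do not tie to a shared source. The smallest p this exact permutation test can give is 0.03125, and p-values were adjusted over 7 comparisons. The anticodon arms with T38 in capitals are shown for the 3 anticodons, followed by the T arms with positions 54 and 55 in capitals.

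tRNA-Ala-AGC-6-1 anticodon arm: ctcgcttagcaTgcgag

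tRNA-Ala-CGC-1-1 anticodon arm: catgcttcgcaTgtatg

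tRNA-Ala-TGC-4-1 anticodon arm: catgctttgcaTgtatg

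tRNA-Ala-AGC-6-1 T arm: gcgggATcgatgcccgc

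tRNA-Ala-AGC-2-1 T arm: ccgggTTcaatccccgg

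tRNA-Ala-CGC-2-1 T arm: ccgggTTcaatccccgg

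tRNA-Ala-TGC-1-1 T arm: ccgggTTcgatccccgg

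At position 38, the rise of 6-1 was 68.4 ± 2.23 points over 6 pairs and that of Ala-CGC-1-1 was 55.3 ± 8.44 points. The difference of 13.1 ± 6.67 points had the same sign in 6 of 6 pairs (exact permutation p = 0.03125, adjusted p = 0.0365). In Ala-TGC-4-1 the rise at 38 was 19.1 ± 3.15 points, lower than in 6-1 by 49.4 ± 4.13 points in 6 of 6 pairs with the same p. Both Ala-CGC and Ala-TGC members also carry T at 40, which reverse transcriptase reaches first. A second Ala-TGC member, Ala-TGC-2-1, has the same anticodon arm as Ala-TGC-4-1 and was at the ceiling in 2 libraries. It rose at 38 by 37.5 ± 2.22 points in young and 52.2 ± 3.05 points in old cells, so 19.1 points does not stand for all Ala-TGC members. In log odds, the difference between 6-1 and Ala-TGC-4-1 shrank to 0.12 with an exact permutation adjusted p of 0.875, so that comparison depends on the scale.

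At position 55 the rise of 6-1 was 18.5 ± 2.9997 points, against 64.7 ± 4.39 points in Ala-CGC-2-1, a difference of -46.1 ± 3.93 points with 1 sign in 6 of 6 pairs (exact permutation adjusted p = 0.0365). Ala-TGC-1-1 had 9.56 ± 2.57 points, and 6-1 was higher by 8.97 ± 3.92 points in 6 of 6 pairs with the same p. Reads that end at 55 have the same sequence in 6-1 and 7-1, so these stops cannot be placed on 6-1 alone. Member 2-1, whose T arm is the same as that of Ala-CGC-2-1, was above 6-1 by 47.8 ± 3.06 points in 6 of 6 pairs (exact permutation adjusted p = 0.0365). That last comparison was added after the values were seen. It set the Ala-AGC member with the highest tested rise at 55 against the one with the lowest, so its sign and p followed from that choice. The tested members with A at 54 ranged from 18.5 to 53.5 points there. Ala-TGC members themselves ranged from 9.60 points in Ala-TGC-5-1 to 69.9 ± 4.96 points in Ala-TGC-4-1 in young cells, so a different choice of member gives a different comparison. At position 54, 2-1 did not pass the test against Ala-CGC-2-1, with a difference of -1.48 ± 1.93 points (exact permutation p = 0.125). It was 6.83 ± 2.51 points above Ala-TGC-1-1 (adjusted p = 0.0365, exact permutation), which rose by 0.475 points. Here too the choice of member matters. Ala-TGC-4-1, at the ceiling in 2 libraries, rose at 54 by 10.5 ± 1.24 points in young and 12.8 ± 0.642 points in old cells. That was more than the 8.43 and 6.18 points of member 2-1, and the site was called at both ages. Ala-TGC-2-1, at the ceiling in 4 libraries, rose by less than member 2-1 at both ages. On the scale of log odds, no comparison kept an adjusted p under 0.05 in the exact permutation test. With a smallest p of 0.03125, that level is out of reach unless most of the 7 comparisons sit at the smallest p. The result therefore does not show that the differences were absent on that scale. Of the 11 Ala-CGC and Ala-TGC members with T at 55, 7 were tested.

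The comparison of ages asks whether pseudouridine differs between young and old cells. No Ala-AGC site passed it. The test was run on T bases with a mean rise of at least 10 points, 13 in Ala-AGC and 439 in all. In edgeR 0 of the 13 were called, beside 0.0% of all, and none of the 13 had an unadjusted p under 0.05, against 22 of the 439. limma called 0 as well. With sites below the coverage ceiling alone, edgeR called 0 of 11 members' sites and 3 of 215 in all, or 1.4%. The difference of old minus young ranged from -4.21 to 5.17 points over the 13 sites, with a median of -0.34, beside 1.39 over all sites.

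The highest age differences were 5.17 ± 3.97 points at position 55 of 7-1, 3.22 ± 6.63 points at position 40 of 7-1 and 3.05 ± 0.981 points at position 38 of 4-1 (difference ± SE, n = 3 a group). The lowest were -4.21 ± 4.47 points at position 38 of 7-1, -3.74 ± 8.39 points at position 55 of 10-1 and -3.21 ± 5.56 points at position 55 of 3-1. All 6 had an edgeR adjusted p of 0.999. The groups of 3 rises did not overlap at 2 of 13 sites, position 38 of 4-1 and of 6-1, both higher in old cells, beside 13% of all sites. At 4-1 the rises were 61.4, 60.2 and 59.5 points in young and 63.9, 64.6 and 61.8 points in old cells. At 6-1 they were 67.3, 65.9 and 67.6 points in young and 68.7, 72.5 and 68.4 points in old cells, a difference of 2.94 ± 1.41 points.

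**Figure D4:**
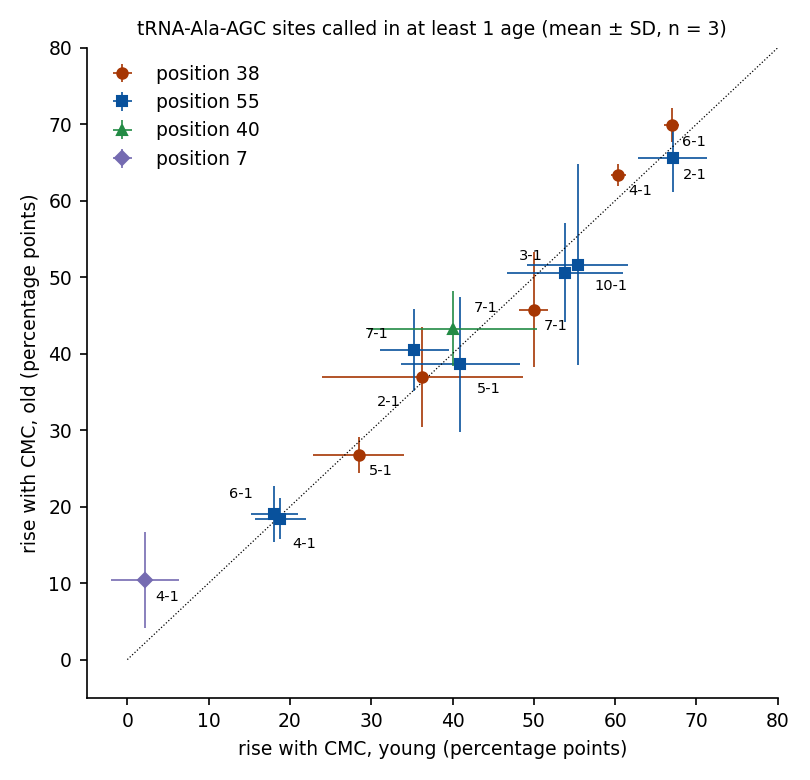
Mean rise with CMC in young cells (horizontal axis) and in old cells (vertical axis), both in percentage points, of the tRNA-Ala-AGC sites called in at least 1 age; bars are the SD of 3 library pairs, labels name the member and the dotted line marks equal rises. The 13 sites at positions 38, 40 and 55 lie along the line, and position 7 of 4-1 lies near 0 in young cells.

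One further T was called in old cells alone, at position 7 of 4-1, in the acceptor stem. Its rates were 3.85, 7.69 and 7.38% in young and 5.73, 4.33 and 4.67% in old cells in BEU buffer, and 10.5, 8.95 and 5.88% in young and 11.3, 21.9 and 12.7% in old cells with CMC. The old CMC libraries were the highest, and 21.9% came from old CMC 2 with 32 reads, for a Wilson interval of 11.02 to 38.8%. The rise was 2.15 points in young and 10.4 ± 6.31 points in old cells (edgeR adjusted p = 0.34 and 0.00418). Without old replicate 2 the rise in old cells was 6.83 points and the site was not called. The age difference at this site was outside the set tested for age, with an unadjusted p of 0.061 in the same edgeR fit. All 5 members with T at 7 had a higher mean rise in old than in young cells, but their 5′ reads are shared in an unknown way and 4 of the 5 were below the coverage minimum.

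Stops in BEU buffer mark bases that halt reverse transcriptase without CMC. At some positions they differed between members of the 2 forms, and at T20 they also differed within the T54 form. In the D arm, named for dihydrouridine, the members with A at 54 had stops at position 17. In 4-1 the rates in BEU buffer were 38.9, 41.3 and 37.3% in young and 34.7, 40.4 and 38.9% in old cells. With CMC they were 45.2, 35.9 and 38% in young and 35.3, 37.9 and 37.1% in old cells. CMC libraries did not stand apart from BEU libraries. Over the 5 members with A at 54, the mean rate at 17 in BEU buffer was 29.8 to 42.1%, and at T20 it was 13.4 to 26.7%. The shorter T54 form has no position 17 in the numbering used, and its T before the same GG is numbered 16. At T16 the 2 tested T54 members had mean rates of 1.90 to 3.59% in BEU buffer. In 2-1, of the other form, T20 had rates of 75.8, 67.8 and 74.8% in young and 67.5, 72.7 and 70.5% in old cells in BEU buffer, over 139 to 505 reads. The coverage at the 5′ end was 1.75 to 2.47% of the highest coverage in the BEU libraries of 2-1. In 3-1 it was 32.6 to 62.1%, and T20 of 3-1 had rates of 12.2 to 30.8%. The CMC libraries of 2-1 fell under the coverage minimum at T20, with as few as 8 reads, so no test was made there.

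**Figure D5:**
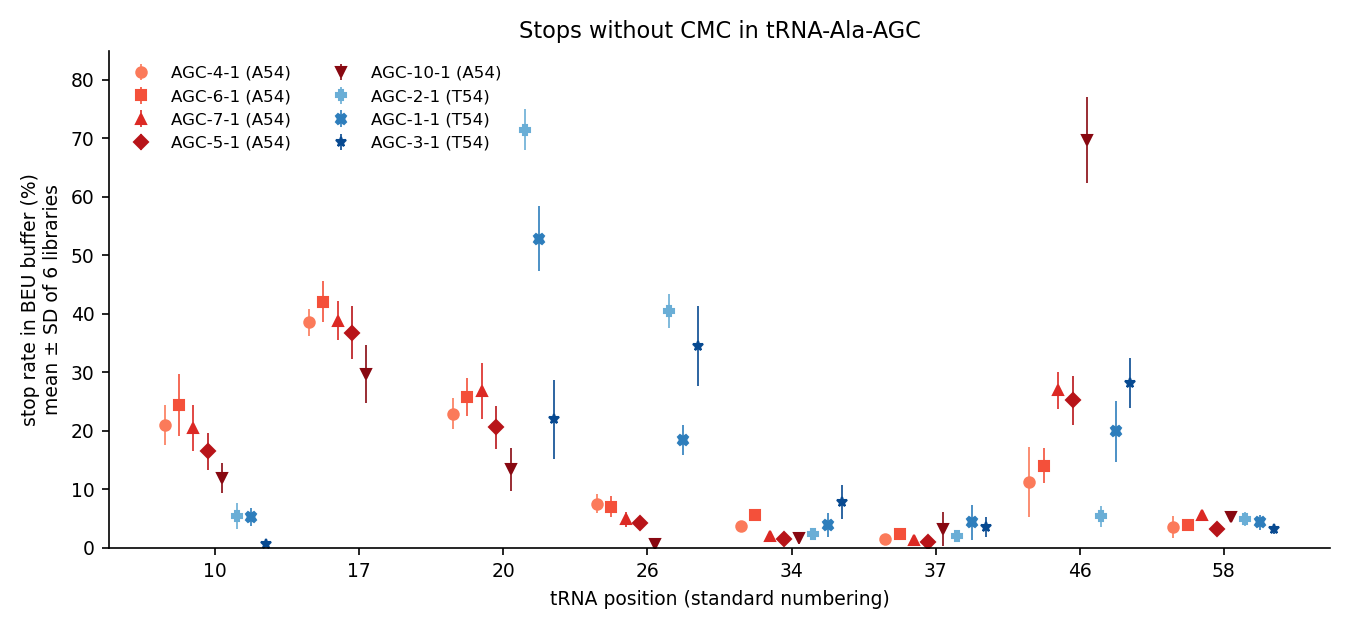
Stop rate in BEU buffer, in percent (vertical axis), at 8 positions with known modifications or stops (horizontal axis) for 8 tRNA-Ala-AGC members; points are the mean and bars the SD of 6 libraries, with A54 members in red and T54 members in blue. Members 4-1, 5-1, 6-1 and 7-1 stop at 10 and 17, and members 2-1 and 3-1 stop more than these at 26.

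G10 and G26 are bases that TRMT11 and TRMT1 methylate. G10 of 4-1 stopped 20.8, 23.1 and 18.4% of reads in young and 16.1, 22.0 and 25.8% in old cells in BEU buffer. Tested G10 of the A54 form had mean rates of 16.5 to 24.5%, while in 3-1 each library had 1 stop read there. With CMC, G10 of 6-1 read 19.6, 20.6 and 56.5% in young cells, and the last value, from young CMC 3, rests on 23 reads. G26 of 4-1 had 7.56, 8.02 and 5.93% in young and 5.41, 8.81 and 9.54% in old cells in BEU buffer. In 2-1, G26 had 42.1, 37.6 and 42.9% in young and 38.7, 37.6 and 44.2% in old cells, and in 3-1 25.5 to 42.9%, so all BEU libraries of these T54 members lay above all of 4-1. G46, which METTL1 methylates, ran from a mean of 11.3% in 4-1 to 26.96% in 7-1 among the tested members of the A54 form and was 5.42% in 2-1. The 4-1 value includes old BEU 1, at the ceiling, with a rate of 0.176%, while the other 5 BEU libraries had 10.4 to 17.4%. Member 10-1, which lacks rows 40 to 43, read 59.9 to 77.3% at position 46 in the 6 BEU libraries, against 18.0 to 28.9% in 5-1, and its CMC coverage there was below the minimum.

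At A9 and at positions of the other known modifications little stopped. At A9, 4-1 had 4.89, 5.15 and 5.45% in young and 2.78, 1.83 and 4.19% in old cells in BEU buffer. At A34, the inosine position, 4-1 had 3.63, 4.53 and 4.58% in young and 3.002, 3.64 and 3.41% in old cells. All old libraries were lower than all young ones at A9, and at A34 the ages overlapped. Both bases had mean rates under the 5% that the age test required. A37 of 4-1 had 0.798 to 2.51% over the 6 BEU libraries, and with CMC 2.65 to 4.95%. A58, the 1-methyladenosine site that AlkB demethylates, had 4.52, 5.93 and 1.31% in young and 1.35, 4.52 and 3.64% in old cells in 4-1, where the 2 lowest values are the libraries at the ceiling. In 6-1 the rates at A58 were 3.05 to 5.38% in BEU buffer.

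Between the ages no base of Ala-AGC passed the test in either treatment. In BEU buffer edgeR called 0 of 68 bases with a mean stop rate of at least 5%, beside 0.0% of all 1190 bases. At an unadjusted p under 0.05 there were 3 of 68 and 69 of 1190, and limma also called 0. The 3 were G45 of 4-1 and G45 and G46 of 6-1, in the variable loop. G45 of 6-1 read 9.19, 11.4 and 9.87% in young and 6.78, 6.78 and 7.38% in old cells, with every old library lower (edgeR adjusted p = 0.629). G46 of 6-1 read 15.1, 18.7 and 15.2% in young and 10.0, 13.1 and 12.2% in old cells. Old and young libraries did not overlap at 11 of 68 bases, 10 of them lower in old cells, or 16.2%, beside 21.2% of all 1190, of which 186 were lower and 66 higher in old cells. When only sites below the coverage ceiling were fitted, G45 of 6-1 passed with an edgeR adjusted p of 0.0446. That fit called 1 of 65 Ala-AGC bases and 50 of 893 in all, or 5.6%. With CMC, edgeR called 0 of 112 bases, beside 0.0% of all 2385 bases (4 and 94 at an unadjusted p under 0.05), and limma called 0. There the ages did not overlap at 13 bases higher and 4 lower in old cells, or 15.2%, beside 240 higher and 94 lower of all, or 14%.

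The amount of each member was read from its highest coverage in the BEU libraries. It is given as CPM of the summed highest coverage of all tRNAs, after TMM scaling between libraries. It did not pass the test between the ages in any of the 9 members by edgeR (0.0% of all 213 tRNAs, 3 of 9 and 12 of 213 at an unadjusted p under 0.05). Member 4-1 was the most abundant, at 6442 ± 462 in young and 7789 ± 1162 in old cells, with 2 of its 6 libraries at the ceiling. Member 6-1 had 4553, 3830 and 4672 in young and 6228, 5134 and 5282 in old cells. On this scale all old libraries were higher, and the log2 difference was 0.35 (edgeR adjusted p = 0.564). Before TMM scaling, 6-1 had 5771 of a summed 1032104 in young BEU 3. In old BEU 2 it had 2573 of 592416, a lower share, so the order of libraries depends on the scaling. Member 8-1 had 301, 338 and 293 in young and 199.8, 217 and 216 in old cells, all lower in old cells, with a log2 difference of -0.56 (edgeR adjusted p = 0.501). All 4 members with T at 54 were lower in old cells and 4 of 5 with A at 54 were higher, and old and young libraries did not overlap in 4 of the 9, beside 11.7% of all 213 tRNAs. The 5′ rows of 3-1 and 8-1 have nearly the same coverage, 92 to 360 and 90 to 355 reads over position 7 in BEU libraries, so the 2 are not independent measurements.

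Depth set the limits of these values. The highest coverage of a member ran from 18 reads in 1 library of 1-1 to 7995 reads in 1 library of 4-1, and Ala-AGC took 1.67 to 2.80% of the summed highest coverage of a library. Coverage never exceeded 8015 reads. Member 4-1 reached the ceiling of 7500 reads in young BEU 3 and old BEU 1, and 6-1 in old BEU 1. The summed highest coverage was 201980 to 767650 in CMC libraries and 533736 to 1061426 in BEU libraries. Reads that stop at 55 or 38 do not reach the 5′ end, so CMC coverage was lowest there. No base of 1-1 passed the coverage minimum.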

How the data were processed

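Small RNA under 200 nucleotides was profiled in 12 libraries, 3 in each of 4 groups. Per the submitters' processing notes, Bowtie2 2.3.5, Bowtie and the mm10 genome were used, with roles not given. Per the file headers, the 6 tables that the authors deposited give for each tRNA base a coverage count, the number of stop reads and a stop rate in percent. The rate equalled 100 times stops over coverage in all 339624 values. Coverage and stops had a minimum of 1. The stop and read-through reads of the 213 distinct tRNAs were fitted with the edgeR 4.0.16 quasi-likelihood test, with a term for each library, over 10059 bases with coverage of at least 20 in all 12 libraries. Benjamini-Hochberg adjustment ran separately over T and over A, C and G. Age was tested as an interaction at T bases with a mean rise of at least 10 points, and within each treatment at bases with a mean rate of at least 5%. limma 3.58.1 on log odds, other coverage minimums, a ceiling filter, a replicate block and leaving out libraries were alternatives. Scripts were tested on simulated data. Wilson intervals (95%) cover counting error only, since reads without molecular identifiers are not independent molecules. The members and lists were chosen with earlier results of these data known. Named sites were the called T bases and the age differences furthest from 0 in each direction, with known modification sites described for the best-covered members. Entries were not matched to genome coordinates, and 13 Ala-AGC genes are named in the RefSeq table.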

Additional observations from a re-analysis of the deposited data

Results flagged for a closer look

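Of the T bases of Ala-AGC below the coverage minimum but with at least 5 reads in every CMC library, 4 had all CMC stop rates above all BEU stop rates and a mean rise of at least 10 points. They were outside the tests above. At position 38 of 3-1 the rise averaged 60.1 points, with CMC rates of 63.6, 60.7 and 66.7% in young and 73.7, 57.1 and 63.3% in old cells over 7 to 84 reads. At position 55 of 1-1 it averaged 46 points, with CMC rates of 43.6, 45.3 and 50.0% in young and 57.7, 40 and 52.2% in old cells over 15 to 128 reads. At position 38 of 1-1 it averaged 32.3 points, with CMC rates of 17.6 to 60% over 5 to 59 reads. At position 32 of 3-1 it averaged 11.3 points, with CMC rates of 2.27 to 20.0% over 5 to 44 reads, but all 12 libraries had 1 stop read there, so this value follows the coverage alone. A stop is never recorded below 1 read, so a rate over 5 reads cannot be lower than 20.0%.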

How the results depend on the processing

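The 13 sites called at both ages kept their calls with limma, with 1 read subtracted from stops and coverage, with all entries in the fit, with 1 adjustment over all bases and with a dispersion trend. Over all alternatives 11 to 14 sites were called in young and 11 to 16 in old cells. The counts were 11 and 11 with a coverage minimum of 50 (52 tested T bases) and 11 and 12 below the coverage ceiling, and 14 and 16 with a minimum of 10, which added position 55 of 1-1 and, in old cells, position 7 of 6-1. Position 7 of 4-1 lost its call in old cells with 1 read subtracted (8.91 points) and without old replicate 2 (6.83 points). Below the coverage ceiling, the test of age in BEU buffer called 1 of 65 bases against 0 of 68, and over all tRNAs 50 of 893 (5.6%) against 0 of 1190. The cause was not tested. Age differences changed sign at position 55 of 10-1 (from -10.3 to 2.86 points with 1 library pair left out, the highest without old replicate 2), at position 55 of 3-1 (from -6.53 to 0.583, with 0.583 without young replicate 3 and 0.507 without old replicate 3) and at position 40 of 7-1 (from -2.10 without young replicate 1 to 8.28), and none was called. On the log odds scale, the differences of 6-1 from Ala-CGC-1-1 and Ala-TGC-4-1 at position 38 were 0.51 and 0.12, that of 2-1 from Ala-TGC-1-1 at 54 was 1.84, those of 6-1 from Ala-CGC-2-1 and Ala-TGC-1-1 at 55 were -1.67 and 0.77, and that of 2-1 from 6-1 at 55, a comparison added after the values were seen, was 2.19. Their exact permutation adjusted p-values ran from 0.0729 to 0.875. With 1 pair left out, these differences in the same order ran from 11.6 to 14.6, 48.3 to 50.2, 6.399 to 7.78, -46.8 to -44.6, 8.08 to 9.89 and 46.7 to 48.5 points, and 5 pairs cannot give an exact permutation p under 0.0625. Libraries of the same number did not deviate together (r from -0.327 to 0.078 in young and from -0.335 to 0.254 in old cells), so the numbers were not used as a block in the main fits. The rises and the sign-flip tests still match libraries by age and number. With the replicate block, 13 sites were called in young and 14 in old cells, and 0 in each test of age and in abundance. Depth limited the 5′ bases most, and no base of 1-1 could be tested.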
